A study of Mus musculus with 9 samples.

Results

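The 78 protein-coding genes of the mouse annotation whose symbols begin with Mrpl or Mrps and a number, of 54532 genes in the deposited table, were examined in BV2 cells under control conditions, under oxygen-glucose deprivation (OGD) and under OGD with the P300 inhibitor A-485. These genes are in the nucleus and encode the proteins of the mitochondrial ribosome, which are made in the cytosol, imported and assembled with RNAs transcribed from the mitochondrial genome. The mitochondrial ribosome translates only the few messenger RNAs of that genome, all of which encode subunits of the respiratory chain and of ATP synthase. Some of its proteins descend from bacterial ribosomal proteins, and others were added during the evolution of mitochondria. By assignment to subunits of the mammalian mitoribosome, 51 members belong to the large subunit and 26 to the small subunit. The remaining member, Mrps36, carries the name but encodes a component of the 2-oxoglutarate dehydrogenase complex.

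BV2 is an immortalized mouse microglial line, and 3 libraries were sequenced from each of 3 groups. Ctrl cells were grown in normal medium, OGD cells in low-glucose medium with reduced serum and low oxygen, and OGD + A-485 cells under the same deprivation with A-485, which inhibits the acetyltransferase activity of P300 and CBP. Serum, oxygen and glucose therefore differed together between Ctrl and OGD. The sample labels give neither the exposure time nor the dose, and nothing says that the libraries of a group came from separate cultures, so the p-values below measure the spread between these libraries, which may be technical. Reads assigned to genes, recovered from the FPKM values and the gene lengths, numbered 12681228, 13653401 and 15594706 in Ctrl, 12593250, 12842430 and 14000875 in OGD, and 15208237, 16091038 and 15126135 in OGD + A-485.

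The labelled cell type was checked against marker genes. Of 15 microglia and macrophage markers, 13 reached the minimum mean of 0.2 FPKM, and Cd68 was the most abundant at a mean of 343 FPKM. The homeostatic microglial markers P2ry12 and Tmem119 averaged 0.105 and 1.35 FPKM, and the complement gene C1qa was listed at 0 in every Ctrl and OGD library. Of 7 neuron markers, 1 reached the minimum mean, and no astrocyte, fibroblast or pericyte marker did. Of 5 oligodendrocyte and 4 endothelial markers, 2 each reached it, with Mbp highest at 0.956 FPKM and Pecam1 at 0.656 FPKM.

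The members were mostly well expressed. FPKM counts fragments per length of the gene model and per a scale set for each library, so levels of different genes can be ranked by it. In the deposited values that scale did not follow the reads assigned to genes. A read per kilobase counted 0.0749 FPKM in Ctrl replicate 1, with 12681228 reads. It counted more, 0.0768 FPKM, in OGD replicate 2, which had more reads (12842430). The median of the members' mean levels was 14.1 FPKM, against 4.56 FPKM over all genes tested, and the middle members ran from 9.57 FPKM at the lower quartile to 25.8 FPKM at the upper quartile. The highest means belonged to Mrpl34 (62.7 FPKM), Mrps21 (59.3 FPKM), Mrpl2 (57.6 FPKM) and Mrpl43 (45.5 FPKM). Among members with reads, Mrpl47 (2.78 FPKM), Mrpl33 (3.39 FPKM) and Mrpl48 (3.57 FPKM) were lowest. The tested members thus spanned 22.5-fold, although the complex holds most of its proteins in near equal copies. Mrpl53 was listed at 0 in all 9 libraries and was the only member left out of the tests. It shares 695 exon bases on the same strand with Gm42688, a protein-coding model at a mean of 0.111 FPKM, so its reads cannot be judged from this table. The other 77 members held between 64 and 2188 reads in a library.

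Summed over the 78 members, expression was lower in every OGD library than in every Ctrl library. The sum was 1642, 1638 and 1691 FPKM in Ctrl, 1353, 1218 and 1291 FPKM in OGD and 1409, 1391 and 1482 FPKM in OGD + A-485. The members took 0.383, 0.381 and 0.3904% of reads in Ctrl, 0.3098, 0.291 and 0.297% in OGD and 0.302, 0.307 and 0.312% in OGD + A-485. The OGD and OGD + A-485 libraries overlapped in this share, though not in the sum, and both groups were below Ctrl. The sum carries the deposited scaling between libraries and the share does not. In bulk RNA, fewer cells that use these genes and less of their RNA per cell cannot be told apart.

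Most members fell under OGD. The log2 fold change is the difference between group means of log2(FPKM + 0.1), and the adjusted p (Benjamini-Hochberg, over all genes tested) bounds the expected share of false calls among genes at or below it. At an adjusted p under 0.05 in limma, 55 of the 77 tested were lower in OGD than in Ctrl and 2 were higher, where 22.8% of all 16123 genes tested were lower and 22.5% higher. A gene was called where its unadjusted p was under 0.01 and its log2 fold change exceeded 0.5 in size, the cut-offs of the study. By this rule 22 members were lower and 0 higher, against 9.81% of all genes lower and 11.2% higher. With scaling to library totals 1 of the 2 higher members still passed. At an unadjusted p under 0.05, 2 members were higher, and limma-voom on the recovered reads also called 0 higher at the thresholds of the study. The median log2 fold change of the 77 members was -0.30, against 0.01 over all genes, and 66 of them had a value below 0. That median stayed below 0 after quantile normalization (-0.29) and after scaling to library totals (-0.35). Median-of-ratios rescaling and limma-voom kept the deposited scaling between libraries, so neither could test its part. Of the 77 members tested, 56 had every OGD library below every Ctrl library and 3 had every OGD library above. The share of all genes that separate in this way was not computed, so these 2 counts only describe the members.

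**Figure D1:**
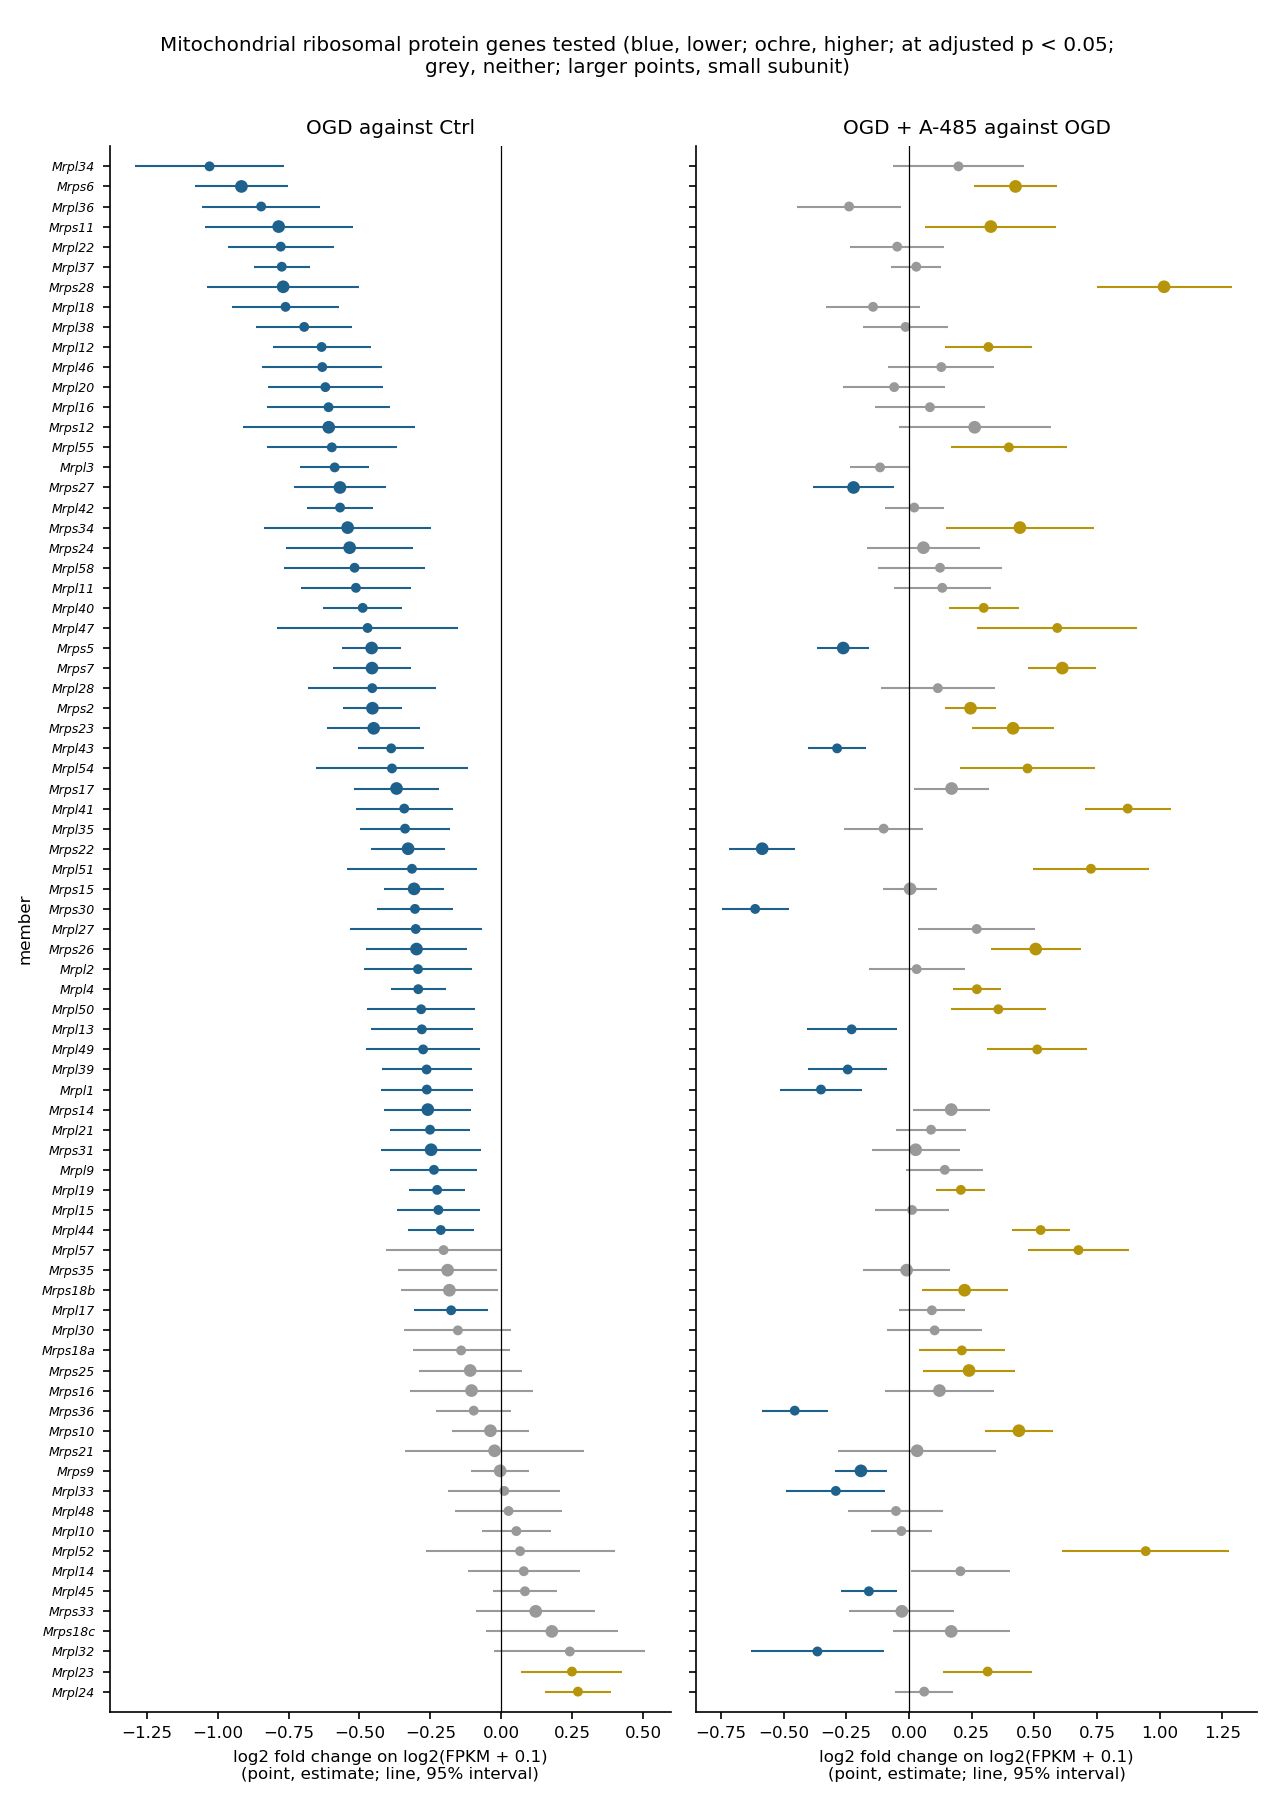
Log2 fold change of each of the 77 members tested, on the log2(FPKM + 0.1) scale, in OGD against Ctrl (left) and in OGD + A-485 against OGD (right), ordered by the left panel. Points are estimates and lines 95% intervals from limma with 3 libraries per group; 55 members are lower and 2 higher on the left, and 27 are higher and 13 lower on the right, at an adjusted p under 0.05.

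Mrpl34, a small basic protein of the large subunit with a bacterial counterpart, had the largest fall and was also the most abundant member in Ctrl. It stood at 94.2, 88.7 and 91.3 FPKM in the Ctrl libraries, 53.5, 37.2 and 44.97 in the OGD libraries and 48.1, 50.6 and 55.4 in the OGD + A-485 libraries. Every OGD library was below every Ctrl library, and the OGD + A-485 libraries overlapped those of OGD. The log2 fold change under OGD was -1.03 ± 0.11 (SE; adjusted p = 0.00011). Mrpl36, another short large-subunit protein conserved in bacteria, stood at 43.1, 46.4 and 50.6 FPKM in the Ctrl libraries, 28.2, 23.8 and 25.8 in the OGD libraries and 19.6, 23.6 and 22.8 in the OGD + A-485 libraries. Both deprived groups were below Ctrl, with no overlap, and the change under OGD was -0.85 ± 0.09 (adjusted p = 9.3e-05). Mrpl36 shares 30 exon bases with Ndufs6 on the opposite strand.

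Mrpl22 encodes a protein that lines the peptide exit tunnel. Its levels were 30.6, 35.1 and 38.5 FPKM in the Ctrl libraries, 21.1, 19.97 and 19.3 in the OGD libraries and 18.3, 19.7 and 20.4 in the OGD + A-485 libraries. The OGD and OGD + A-485 libraries overlapped each other and lay below Ctrl, with a log2 fold change of -0.78 ± 0.08 under OGD (adjusted p = 7.9e-05). Mrpl37, a large-subunit protein found only in mitochondria, stood at 16.2, 15.7 and 15.3 FPKM in the Ctrl libraries, 8.88, 9.33 and 9.29 in the OGD libraries and 9.61, 9.198 and 9.27 in the OGD + A-485 libraries. This was the tightest of the named falls, with a log2 fold change of -0.77 ± 0.04 (adjusted p = 3e-06). In the small subunit, Mrps6 and Mrps11, whose bacterial counterparts lie on the platform, fell most. Mrps6 stood at 21.5, 20.6 and 21.9 FPKM in the Ctrl libraries, 11.9, 10.3 and 11.6 in the OGD libraries and 13.8, 15.5 and 16.2 in the OGD + A-485 libraries, a log2 fold change of -0.92 ± 0.07 under OGD (adjusted p = 1.6e-05). Mrps11 stood at 8.41, 9.66 and 8.56 FPKM in the Ctrl libraries, 5.93, 4.49 and 4.98 in the OGD libraries and 6.995, 6.62 and 5.72 in the OGD + A-485 libraries, a log2 fold change of -0.79 ± 0.11 (adjusted p = 0.00053). For both genes all OGD libraries were below all Ctrl libraries. Mrps11 shares 173 exon bases with Mrpl46 on the opposite strand, and Mrps6 shares 159 with Slc5a3 on the same strand, so their reads could be mixed.

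The window before the start of transcription is printed for 5 members, namely Mrpl34 and Mrpl22, which fell under OGD, Mrpl52 and Mrpl41, which were higher with A-485, and Mrps22, which was lower with A-485. Each run holds the 250 bases before the annotated start, 5′ to 3′ along the gene's strand, in the RefSeq build GRCm38.p6. Capitals mark exact matches, on either strand, to the motif letters searched.
Mrpl34, chr8:71464676-71464925, plus strand: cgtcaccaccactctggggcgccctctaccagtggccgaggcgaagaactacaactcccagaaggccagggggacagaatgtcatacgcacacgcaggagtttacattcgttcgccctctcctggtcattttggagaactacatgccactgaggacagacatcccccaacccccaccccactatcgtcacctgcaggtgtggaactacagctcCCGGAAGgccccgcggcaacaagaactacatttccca
Mrpl22, chr11:58171414-58171663, plus strand: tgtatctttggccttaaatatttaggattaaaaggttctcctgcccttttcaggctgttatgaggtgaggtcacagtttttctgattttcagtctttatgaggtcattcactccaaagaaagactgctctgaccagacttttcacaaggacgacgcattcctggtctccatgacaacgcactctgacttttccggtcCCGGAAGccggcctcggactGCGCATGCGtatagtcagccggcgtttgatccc
Mrpl52, chr14:54426659-54426908, plus strand: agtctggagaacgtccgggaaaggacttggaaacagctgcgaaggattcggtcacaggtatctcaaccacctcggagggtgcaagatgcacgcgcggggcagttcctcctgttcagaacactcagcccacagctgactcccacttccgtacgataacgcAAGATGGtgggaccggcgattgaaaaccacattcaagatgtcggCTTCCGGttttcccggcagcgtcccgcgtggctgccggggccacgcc
Mrpl41, chr2:24975099-24975348, minus strand: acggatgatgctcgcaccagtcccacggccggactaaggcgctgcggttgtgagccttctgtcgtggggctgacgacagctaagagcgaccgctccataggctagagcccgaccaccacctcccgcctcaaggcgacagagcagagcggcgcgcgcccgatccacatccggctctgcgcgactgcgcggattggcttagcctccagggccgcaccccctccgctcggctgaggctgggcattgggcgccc
Mrps22, chr9:98601680-98601929, minus strand: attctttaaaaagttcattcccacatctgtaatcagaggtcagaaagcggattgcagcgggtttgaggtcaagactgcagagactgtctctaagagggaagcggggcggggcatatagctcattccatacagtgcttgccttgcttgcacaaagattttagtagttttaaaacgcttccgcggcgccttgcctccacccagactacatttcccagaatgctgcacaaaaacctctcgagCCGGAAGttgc
The Mrpl34 and Mrps22 windows each hold 1 match to the ETS core (CCGGAAG). The Mrpl22 window holds 1 match to the ETS core and 1 to the NRF1 core (GCGCANGCG), and the Mrpl52 window 1 to the ETS core and 1 to the YY1 core (AAGATGG). The Mrpl41 window holds no match.

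Across the members, 69 matched the promoter table by symbol, with 75 promoters of 300 bases, set beside all 32851 promoters of the table. The ETS core was present in 26 of 75 member promoters (34.7%) and in 8.86% of all promoters. The NRF1 core was present in 16 of 75 member promoters (21.3%) and in 6.25% of all promoters, and the YY1 core in 13 of 75 member promoters (17.3%) and in 6.34% of all promoters. The E-box (CACGTG) was found in 7 of 75 member promoters (9.33%) and in 7.15% of all promoters, but counted per gene in 5 of 69 members (7.25%) and in 8.09% of all genes. The TATA box (TATAAA) was found in 5 of 75 member promoters (6.67%) and in 13.6% of all promoters. Member promoters had a median GC content of 58.7% and a median of 21 CpG dinucleotides, against 52.7% and 7 over all promoters, so the windows also differ in base composition. The 16 tested members with an NRF1 match had a median log2 fold change of -0.18 under OGD, with 7 lower at an adjusted p under 0.05, and the 52 without had a median of -0.36, with 40 lower. For the ETS core the medians were -0.30 in 25 members with a match and -0.31 in 43 without. Members with a YY1 match had a lower median, -0.53 in 13 with 10 lower, against -0.29 in 55 without with 37 lower. For the E-box the medians were -0.62 in 5 and -0.30 in 63, and for the TATA box -0.53 in 5 and -0.30 in 63. The differences were not tested. These are counts of letters, and binding was not measured.

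**Figure D2:**
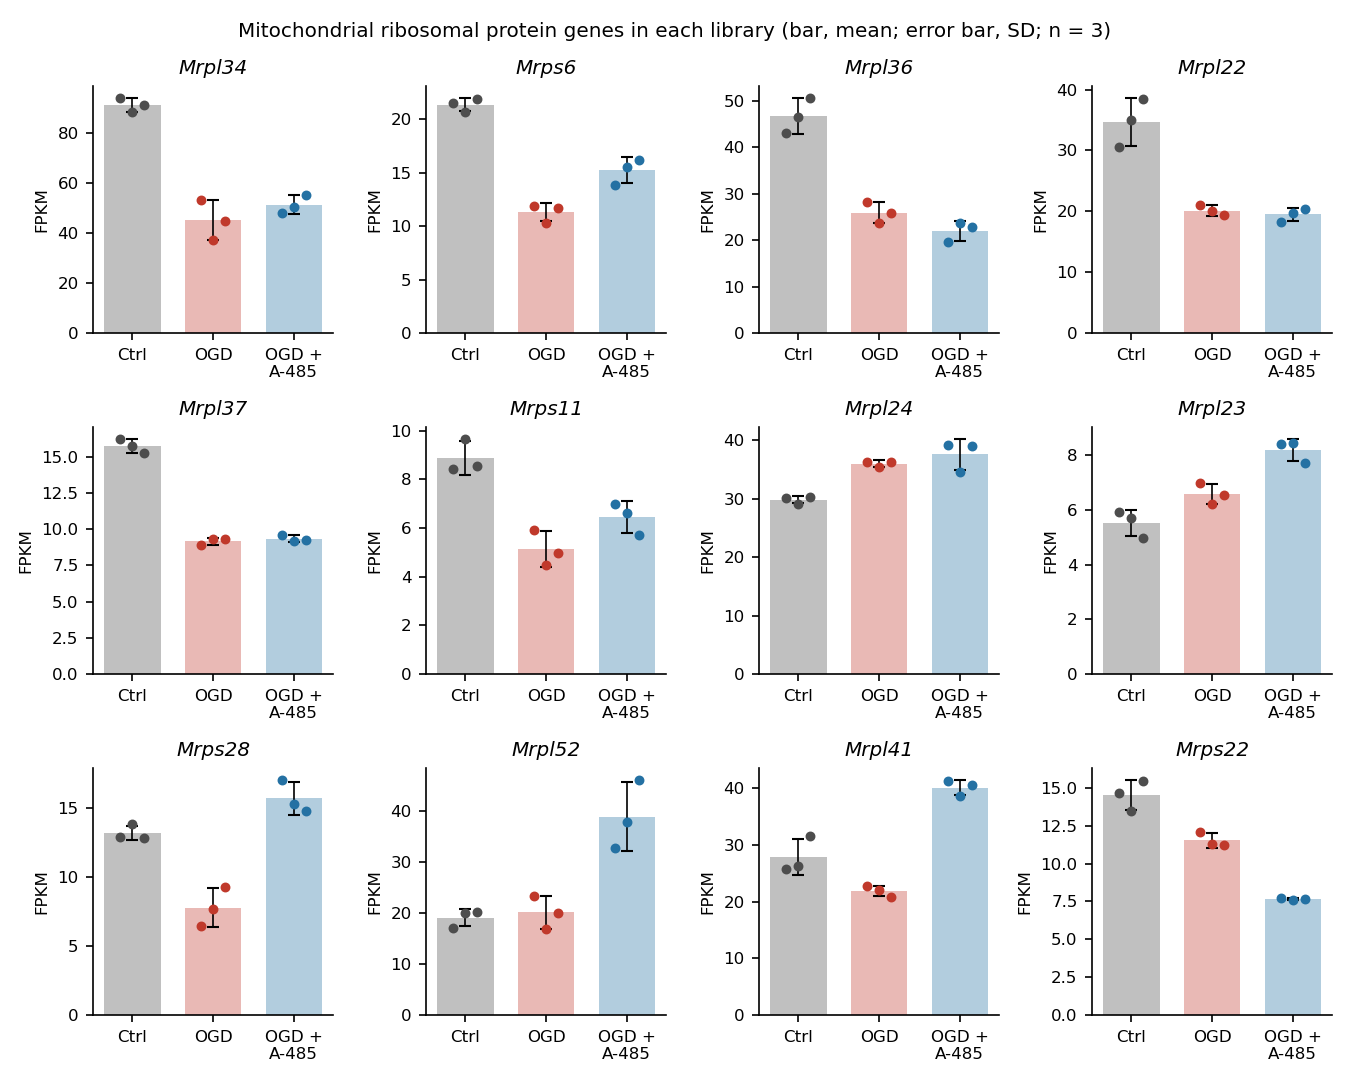
FPKM of 12 members in each of the 9 libraries, grouped as Ctrl, OGD and OGD + A-485. Bars are means, error bars SD and points single libraries (n = 3); the OGD points of Mrpl34, Mrps6, Mrpl36, Mrpl22, Mrpl37 and Mrps11 lie below all Ctrl points, and the OGD + A-485 points of Mrps28, Mrpl52 and Mrpl41 lie above all OGD points.

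The 2 members higher under OGD, Mrpl24 and Mrpl23, both encode proteins around the opening of the exit tunnel. Mrpl24 stood at 30.2, 29.1 and 30.2 FPKM in the Ctrl libraries, 36.3, 35.4 and 36.4 in the OGD libraries and 39.2, 34.6 and 39.1 in the OGD + A-485 libraries. Mrpl23 stood at 5.902, 5.69 and 4.97 FPKM in the Ctrl libraries, 6.97, 6.21 and 6.54 in the OGD libraries and 8.41, 8.44 and 7.73 in the OGD + A-485 libraries. In both, every OGD library was above every Ctrl library, by a log2 fold change of 0.27 ± 0.05 in Mrpl24 (adjusted p = 0.0023) and 0.25 ± 0.08 in Mrpl23 (adjusted p = 0.029). Neither passed the fold threshold of the study. The neighbours of Mrpl23, the 50 nearest genes tested, had a median of 0.22, and 0.03 remained for Mrpl23 after its subtraction. For Mrpl24, 0.26 remained. Mrpl24 shares 594 exon bases with Rrnad1 on the opposite strand, and a processed pseudogene of Mrpl23 on another chromosome averaged 2.58 FPKM, so reads of Mrpl23 could be split with its copy.

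In the stalk of the large subunit, where translation factors dock, 2 of the 3 genes passed the test under OGD. Mrpl12 stood at 42.8, 39.4 and 40.2 FPKM in the Ctrl libraries, 29.4, 24.3 and 25.3 in the OGD libraries and 35.1, 31.4 and 31.7 in the OGD + A-485 libraries, with all OGD libraries below Ctrl (log2 fold change -0.63 ± 0.08; adjusted p = 0.00017). Mrpl11, at the stalk base, stood at 10.1, 10.5 and 11.7 FPKM in the Ctrl libraries, 8.31, 7.196 and 7.08 in the OGD libraries and 8.07, 8.87 and 7.82 in the OGD + A-485 libraries, again with no overlap between OGD and Ctrl (log2 fold change -0.51 ± 0.09; adjusted p = 0.0011). Mrpl10, which anchors the Mrpl12 copies, stood at 35.7, 34.3 and 31.3 FPKM in the Ctrl libraries, 34.4, 35.1 and 35.6 in the OGD libraries and 35.5, 32.6 and 34.8 in the OGD + A-485 libraries. Its 3 groups overlapped, and its log2 fold change was 0.05 ± 0.05 under OGD (adjusted p = 0.46). The difference between Mrpl10 and Mrpl12 was not tested. With A-485, Mrpl12 was higher than in OGD by 0.32 ± 0.08 (adjusted p = 0.0073), and Mrpl11 and Mrpl10 had values of 0.13 ± 0.09 and -0.03 ± 0.05 with adjusted p of 0.23 and 0.67. Without OGD + A-485 replicate 2 the value of Mrpl10 was 0.0052. With the neighbours' median subtracted, the values with A-485 were -0.33 for Mrpl10 (unadjusted p = 0.0011 in limma), -0.04 for Mrpl11 and 0.19 for Mrpl12. Under OGD the value of Mrpl10 was then 0.09.

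Mammals carry a family of paralogues of a single bacterial small-subunit protein, each at its own site in the mitoribosome, and none of the 3 passed the test under OGD. Mrps18a, whose protein sits in the large subunit, stood at 15.2, 17.5 and 16.3 FPKM in the Ctrl libraries, 15.03, 14.8 and 14.5 in the OGD libraries and 15.9, 16.5 and 19.1 in the OGD + A-485 libraries. Mrps18b stood at 13.04, 13.7 and 15.9 FPKM in the Ctrl libraries, 12.3, 13.2 and 11.9 in the OGD libraries and 14.8, 14.9 and 13.98 in the OGD + A-485 libraries. Mrps18c stood at 6.4003, 7.17 and 6.77 FPKM in the Ctrl libraries, 7.59, 8.14 and 7.33 in the OGD libraries and 9.16, 7.296 and 9.67 in the OGD + A-485 libraries, with every OGD library above every Ctrl library. Their log2 fold changes under OGD were -0.14 ± 0.08, -0.18 ± 0.08 and 0.18 ± 0.10, with adjusted p of 0.16, 0.079 and 0.19. With A-485, Mrps18a and Mrps18b were higher than in OGD by 0.21 ± 0.08 and 0.22 ± 0.08 (adjusted p = 0.044 and 0.036), which neither passed after quantile normalization or scaling to library totals. Mrps18c had a value of 0.17 ± 0.10 (adjusted p = 0.21). With the neighbours' median subtracted Mrps18b had values of -0.05 under OGD and 0.40 with A-485.

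In both subunits, and in both the conserved and the mitochondria-specific class, most members tested were lower under OGD. Of all genes, 22.8% were lower and 22.5% higher. Mrps18a and Mrps18b, kept apart as paralogues, and Mrps36 are in neither class, and none of them passed under OGD. In the large subunit, 38 of 50 members tested were lower and 2 higher at an adjusted p under 0.05, with a median log2 fold change of -0.30. In the small subunit, 17 of 26 were lower, with a median of -0.32. Of 46 members conserved in bacteria, 34 were lower and 2 higher, with a median of -0.30, and of 28 specific to mitochondria 21 were lower, with a median of -0.31. With A-485 against OGD the medians were 0.10 for the large and 0.17 for the small subunit, and 0.11 for conserved and 0.13 for mitochondria-specific members. Among the mitochondria-specific members, 13 of 28 were higher and 6 lower with A-485, and among the conserved 12 of 46 were higher and 6 lower. That is 46.4% and 26.1% higher, where 25.1% of all genes were higher, so the conserved members were near the share of all genes in this direction. The shares lower were 21.4% and 13.0%, against 24.7% of all genes. The difference between these classes was not tested.

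Addition of A-485 to OGD moved members in both directions. At an adjusted p under 0.05, 27 of 77 were higher and 13 lower than in OGD, where 25.1% of all genes were higher and 24.7% lower. At the thresholds of the study 10 members were higher and 2 lower, against 12.2% of all genes higher and 13.4% lower, so the share of members called higher (13.0%) was close to that of all genes and the share called lower (2.60%) was smaller. The median log2 fold change was 0.12, against 0.01 over all genes. It was 0.07 without OGD replicate 2 and after quantile normalization, and 0.06 after scaling to library totals, where 70.0% of the called members were higher, against 83.3% with the deposited values. That scaling also moved the median of all genes, to -0.05, so relative to all genes the members stood at 0.11 in both. Their value relative to all genes was 0.06 without OGD replicate 2 and 0.08 after quantile normalization. When the median of the 50 nearest genes on the chromosome was subtracted from each member, 3 members were called higher, namely Mrps28, Mrpl41 and Mrpl49, and 1 lower, Mrpl1, so that 7 of the 10 and both of the 2 were no longer called. At an adjusted p under 0.05, 23 members were then higher and 12 lower, and the median was 0.10. These were not all the same genes as before. Mrpl20 moved from -0.06 to 0.46, and Mrps36 from -0.46 to -0.08. Over all genes 1805 were called higher and 2060 lower after the subtraction, against 1974 and 2165 before it. Mrpl49 was chosen after its values were seen.

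Mrps28, a small-subunit protein, had the largest rise with A-485. It stood at 12.9, 13.8 and 12.9 FPKM in the Ctrl libraries, 6.42, 7.65 and 9.26 in the OGD libraries and 17.04, 15.3 and 14.8 in the OGD + A-485 libraries. Its OGD libraries were below Ctrl and its OGD + A-485 libraries above both. The log2 fold change from OGD to OGD + A-485 was 1.02 ± 0.12 (adjusted p = 0.00011), and the fall under OGD also passed (adjusted p = 0.00072). The difference between OGD + A-485 and Ctrl did not pass (adjusted p = 0.11). Mrpl52 and Mrpl41, mitochondria-specific proteins of the large subunit, had the next largest rises. Mrpl52 stood at 17.1, 19.998 and 20.3 FPKM in the Ctrl libraries, 23.4, 16.97 and 20.1 in the OGD libraries and 32.8, 37.9 and 46.2 in the OGD + A-485 libraries. Its Ctrl and OGD libraries overlapped, and the OGD + A-485 libraries lay above both (log2 fold change 0.94 ± 0.15 against OGD; adjusted p = 0.00064). The median of its neighbouring genes rose by 0.70, and 0.24 remained for Mrpl52 after subtraction. Mrpl41 stood at 25.7, 26.3 and 31.5 FPKM in the Ctrl libraries, 22.7, 21.97 and 20.9 in the OGD libraries and 41.2, 38.6 and 40.5 in the OGD + A-485 libraries. It fell under OGD (adjusted p = 0.0054) and rose above both groups with A-485 (0.87 ± 0.08 against OGD; adjusted p = 1.9e-05), and its neighbours had a median of 0.02.

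Mrpl51, Mrpl57 and Mrps7 completed the 6 largest rises. Mrpl51 stood at 9.13, 10.5 and 10.7 FPKM in the Ctrl libraries, 8.86, 6.88 and 8.69 in the OGD libraries and 13.001, 13.5 and 13.8 in the OGD + A-485 libraries. Mrpl57 stood at 11.5, 13.3 and 11.5 FPKM in the Ctrl libraries, 10.6, 9.302 and 11.6 in the OGD libraries and 17.5, 16.3 and 16.6 in the OGD + A-485 libraries. Mrps7, whose bacterial counterpart organizes the head of the small subunit, stood at 25.7, 26.3 and 23.7 FPKM in the Ctrl libraries, 19.4, 17.3 and 18.4 in the OGD libraries and 28.7, 26.6 and 28.99 in the OGD + A-485 libraries. In each the OGD + A-485 libraries were above all OGD libraries, by log2 fold changes of 0.73 ± 0.10, 0.68 ± 0.09 and 0.61 ± 0.06 (adjusted p = 0.00034, 0.00023 and 4e-05). After subtraction of the neighbours' median, 0.34, 0.38 and 0.31 remained, below the fold threshold of the study. Mrps7 shares 119 exon bases with Mif4gd and 127 with Gga3 on the opposite strand.

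The members lower with A-485 were led by Mrps30 and Mrps22. Mrps30 is a large-subunit protein despite its name, and stood at 9.12, 8.69 and 9.16 FPKM in the Ctrl libraries, 6.95, 7.74 and 7.103 in the OGD libraries and 4.59, 4.63 and 4.91 in the OGD + A-485 libraries. Mrps22, a mitochondria-specific small-subunit protein, stood at 14.7, 13.5 and 15.5 FPKM in the Ctrl libraries, 12.1, 11.3 and 11.3 in the OGD libraries and 7.6996, 7.61 and 7.65 in the OGD + A-485 libraries. Both fell from Ctrl to OGD and again from OGD to OGD + A-485, with no overlap between any pair of groups, and the second step was -0.61 ± 0.06 in Mrps30 (adjusted p = 3.6e-05) and -0.59 ± 0.06 in Mrps22 (adjusted p = 4.1e-05). Their neighbouring genes had medians of -0.37 and -0.35, and -0.25 and -0.23 remained after subtraction. Mrps36, which is not a mitoribosome protein, stood at 14.6, 13.8 and 12.8 FPKM in the Ctrl libraries, 13.01, 12.6 and 12.8 in the OGD libraries and 9.02, 9.09 and 9.85 in the OGD + A-485 libraries. Its Ctrl and OGD libraries overlapped, and its OGD + A-485 libraries were below both (-0.46 ± 0.06; adjusted p = 0.00019). Its neighbours had a median of -0.38, and -0.08 remained. Processed pseudogenes of Mrps36 averaged 0.949, 0.501 and 0 FPKM, so some of its reads could be shared.

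Mrpl1, Mrpl32 and Mrpl33 were the other named falls with A-485, all in large-subunit proteins conserved in bacteria. Mrpl1, which forms the mobile stalk next to the exit site for transfer RNA, stood at 10.8, 10.5 and 12.2 FPKM in the Ctrl libraries, 9.53, 9.75 and 8.64 in the OGD libraries and 7.58, 7.16 and 7.06 in the OGD + A-485 libraries. Mrpl32, whose precursor is matured by the mitochondrial m-AAA protease before it joins the ribosome, stood at 4.88, 4.75 and 6.16 FPKM in the Ctrl libraries, 6.91, 5.84 and 5.91 in the OGD libraries and 4.35, 5.18 and 4.87 in the OGD + A-485 libraries. Mrpl33 stood at 3.53, 3.54 and 3.71 FPKM in the Ctrl libraries, 3.55, 3.701 and 3.61 in the OGD libraries and 2.61, 3.23 and 3.01 in the OGD + A-485 libraries. In all 3 the OGD + A-485 libraries were below every OGD library, by log2 fold changes of -0.35 ± 0.07, -0.37 ± 0.12 and -0.29 ± 0.09 (adjusted p = 0.003, 0.029 and 0.02). After subtraction of the neighbours' median, -0.06 remained for Mrpl32, and the values of Mrpl1 and Mrpl33 were -0.51 and -0.39.

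In OGD + A-485 against Ctrl, more members were lower than higher. This comparison shares its libraries with the other comparisons, so it is no separate evidence. At an adjusted p under 0.05, 38 of 77 were lower and 12 higher, with 27 passing in neither direction, against 28.4% lower and 28.2% higher over all genes, and at the thresholds of the study 20 were lower and 3 higher, against 16.6% and 17.0%. The median was -0.20, against 0.02 over all genes. Scaling to library totals moved the median of all genes in this comparison by -0.10, and the members' median to -0.31; relative to all genes the members stood at -0.21 with the deposited values and -0.22 with library totals. At an adjusted p under 0.05, 5 rather than 12 were higher once the neighbours' median was subtracted. With library totals 25 members were called lower and 1 higher. Of all genes called in this comparison, 50.6% were higher with the deposited values and 40.2% with library totals. After subtraction of the neighbours' median 0 members were called higher and 16 lower in OGD + A-485 against Ctrl by limma, with 7 higher at an unadjusted p under 0.05.

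The largest falls against Ctrl were in Mrpl36 (-1.09 ± 0.09), Mrps30 (-0.92 ± 0.06), Mrps22 (-0.91 ± 0.06), Mrpl18 (-0.90 ± 0.08), Mrpl34 (-0.83 ± 0.11) and Mrpl22 (-0.82 ± 0.08), as log2 fold changes with SE. Mrpl18, whose bacterial counterpart binds the small ribosomal RNA of the large subunit, stood at 24.8, 24.4 and 26.02 FPKM in the Ctrl libraries, 15.6, 12.9 and 15.97 in the OGD libraries and 12.6, 13.4 and 14.1 in the OGD + A-485 libraries. Both deprived groups were below Ctrl (adjusted p = 1.7e-05 for OGD + A-485), and the gene shares 141 exon bases with the abundant Tcp1 on the opposite strand. The largest rises were in Mrpl52 (1.01 ± 0.15), Mrpl23 (0.56 ± 0.08), Mrpl41 (0.53 ± 0.08), Mrpl57 (0.47 ± 0.09), Mrpl51 (0.41 ± 0.10) and Mrps10 (0.40 ± 0.06). Mrps10, a small-subunit protein whose bacterial counterpart lies in the head, stood at 8.997, 9.82 and 10.01 FPKM in the Ctrl libraries, 9.22, 9.84 and 9.002 in the OGD libraries and 13.1, 12.9 and 12.1 in the OGD + A-485 libraries. Its Ctrl and OGD libraries overlapped and its OGD + A-485 libraries were above both (adjusted p = 0.00038). The call of Mrpl41 against Ctrl was lost without Ctrl replicate 1 (0.48) or 2 (0.49), and also after quantile normalization (0.45) or scaling to library totals (0.42). That of Mrpl23 was lost without Ctrl replicate 3 (0.49), with a pseudocount of 1 (0.50) and with library totals (0.45). Subtraction of the neighbours' median left 0.44 for Mrpl52, 0.39 for Mrpl41, 0.21 for Mrpl23, 0.12 for Mrpl57, 0.09 for Mrps10 and 0.08 for Mrpl51. It left -0.63 for the fall of Mrpl36. Mrpl57 passed both thresholds without Ctrl replicate 2 (0.54).

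The members lie on 17 chromosomes, and many share their start region or their exons with a neighbour. Of the 77 tested, 19 (24.7%) have the start of a protein-coding gene on the opposite strand within 1000 bases upstream, against 1176 of 11393 protein-coding genes tested (10.3%). The pairs include Mrpl51 with the condensin gene Ncapd2, 100 bases apart, Mrps18b with Ppp1r10, 45 bases apart, and Mrpl41 with Pnpla7, 935 bases apart, all chosen after their values were seen. With A-485 against OGD the log2 fold change was 0.73 in Mrpl51 and -0.73 in Ncapd2 (adjusted p = 1.5e-05 for Ncapd2), but 0.87 in Mrpl41 and 1.31 in Pnpla7 (adjusted p = 1.4e-07 for Pnpla7). For Mrps18b and Ppp1r10 it was -0.18 and -1.24 under OGD (adjusted p = 4.8e-06 for Ppp1r10), and 0.22 and 0.76 with A-485 (adjusted p = 4.7e-05 for Ppp1r10). Over the 19 pairs the median with A-485 against OGD was 0.22 for members and -0.12 for partners, and under OGD -0.31 and -0.32. Of all 78 members, 28, the untested Mrpl53 among them, share exon bases with another gene in the table that reached the minimum mean. Their reads could be mixed with those of that gene or left uncounted. Neither the strand setting nor the treatment of reads in shared bases is given in the sources used here. Among the 50 members that share none, 34 were lower (68%) and 1 higher (2%) under OGD at an adjusted p under 0.05, with a median of -0.30. Of all genes, 22.8% were lower and 22.5% higher. With A-485, 15 of the 50 were higher (30.0%) and 11 lower (22.0%), against 25.1% and 24.7% of all genes. Their median with A-485 was 0.06 against OGD, and -0.01 after scaling to library totals, where the median of all genes was -0.05.

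Changes were also set beside gene length and level, as a description across 77 genes that share the same 9 libraries and are not independent replicates. The rank correlation of log2 fold change with gene length was 0.31 under OGD and -0.26 with A-485 against OGD in the members, and 0.01 and -0.08 over the 11393 protein-coding genes tested. Members with longer models thus tended to have smaller falls under OGD and lower values with A-485. With mean level it was -0.20 and 0.07 in the members. No RNA integrity values are given with the libraries, and the part of fragmentation in these values was not tested.

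In the other lists of the mitochondrial translation apparatus, more genes were lower than higher under OGD. The shares of all genes to set beside these counts are 22.8% lower and 22.5% higher under OGD, and 24.7% lower and 25.1% higher with A-485 against OGD. Of 5 mitoribosome proteins named outside the symbol rule and tested, 3 were lower at an adjusted p under 0.05, among them Chchd1 (-0.60; adjusted p = 0.00035). Of 26 assembly factors 15 were lower and 2 higher, with a median log2 fold change of -0.40. They included Mrm2, which methylates the large ribosomal RNA (-1.51; adjusted p = 4.8e-05), the RNA helicase Ddx28 (-0.86; adjusted p = 2.4e-06) and the ribosome-associated Mettl17 (-0.88; adjusted p = 8.1e-05). The methyltransferases Mettl15 (0.80) and Nsun4 (0.53) were higher. Without OGD replicate 2 Chchd1 (-0.496) fell short of the fold threshold, and after quantile normalization Nsun4 (0.47) did. With A-485 against OGD, 9 of the 26 were higher (34.6%) and 6 lower (23.1%, near the share of all genes), and Mrm2 was higher by 0.75 (adjusted p = 0.0025) and Mettl17 by 0.65 (adjusted p = 0.00041). After subtraction of its neighbours' median the value of Mettl17 with A-485 was -0.08.

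Among 15 translation factors tested, 7 were lower under OGD, with a median of -0.14, and 5 were higher (33.3%) and 5 lower (33.3%) with A-485, or 3 and 3 after subtraction of the neighbours' median. The elongation factor Gfm1 fell by 0.56 on the log2 scale under OGD (adjusted p = 0.00013) and was higher by 0.54 with A-485 (adjusted p = 0.00013). Oxa1l, which inserts newly made proteins into the inner membrane, was higher with A-485 by 0.96 (adjusted p = 3.3e-06). After subtraction of the neighbours' median 0.24 remained for Oxa1l and 0.03 for Gfm1. Guf1, a translation GTPase, had a value of -0.80 with A-485 (adjusted p = 7.8e-06). Of 20 genes for charging mitochondrial transfer RNAs, 9 were lower and 3 higher under OGD, with a median of -0.27, and 7 were lower (35%) and 3 higher (15%) with A-485. Mars2 (-1.28; adjusted p = 4e-06) and Qrsl1 (-0.99; adjusted p = 0.00011) fell most under OGD, and Iars2 (0.50; adjusted p = 8e-06) rose, short of the fold threshold with library totals (0.45). Of 16 genes for maintaining and transcribing the mitochondrial genome, 10 were lower and 1 higher under OGD, with a median of -0.36, and 7 were lower (43.8%) and 3 higher (18.8%) with A-485.

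The RNAs that the mitoribosome reads or contains were measured in the same libraries. Of 15 messenger and ribosomal RNAs of the mitochondrial genome, 9 were lower under OGD (60%, against 22.8% of all genes), with a median of -0.65. With A-485 8 were higher (53.3%) and 2 lower (13.3%), against 25.1% and 24.7% of all genes, with a median of 0.68. Mitochondrial genes took 1.82, 1.93 and 2.203% of reads in Ctrl, 1.14, 1.28 and 1.17% in OGD and 1.66, 2.01 and 1.85% in OGD + A-485. The OGD libraries were below all others. The respiratory chain messenger mt-Nd1 stood at 2379, 2529 and 3025 FPKM in Ctrl, 815, 819 and 799 in OGD and 1414, 1833 and 1718 in OGD + A-485. Its change was -1.70 under OGD (adjusted p = 7.8e-06) and 1.02 with A-485 (adjusted p = 0.0001). The ribosomal RNAs went the other way with A-485. The small ribosomal RNA mt-Rnr1 stood at 411, 387 and 468 FPKM in Ctrl, 559.9, 578 and 477 in OGD and 138, 207 and 201 in OGD + A-485, a change of -1.58 from OGD (adjusted p = 4e-05), and the large ribosomal RNA mt-Rnr2 changed by -0.58 (adjusted p = 0.0067). Without OGD + A-485 replicate 1 the change of mt-Rnr2 was -0.43 and was not called. How library preparation treated ribosomal RNA is not given in the sources used here, so these levels do not give the number of ribosomes.

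Of 11 tested regulators of nuclear genes for mitochondria, 7 were lower (63.6%) and 2 higher (18.2%) under OGD, against 22.8% and 22.5% of all genes. Nrf1 (-0.56; adjusted p = 0.0008), the coactivators Pprc1 (-0.73; adjusted p = 6.7e-05) and Ppargc1b (-0.76; adjusted p = 0.0002) and Yy1 (-0.51; adjusted p = 5e-05) were lower. Yy1 fell short of the fold threshold after quantile normalization (-0.48), and Nrf1 with a pseudocount of 1 (-0.44). Myc, at 0.909, 0.723 and 0.955 FPKM in Ctrl and 2.54, 2.94 and 3.01 in OGD, was higher by 1.61 (adjusted p = 4.1e-05), or 1.04 with a pseudocount of 1. With A-485 against OGD, 3 were higher (27.3%, near the 25.1% of all genes) and 5 lower (45.5%, against 24.7%). Esrra was at 0.74 (adjusted p = 0.00013) and Mxi1 at -0.85 (adjusted p = 7e-07), or -0.51 for Mxi1 with the neighbours' median subtracted. Ppargc1a was below the minimum mean. Whether these levels bear on the members was not tested.

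**Figure D3:**
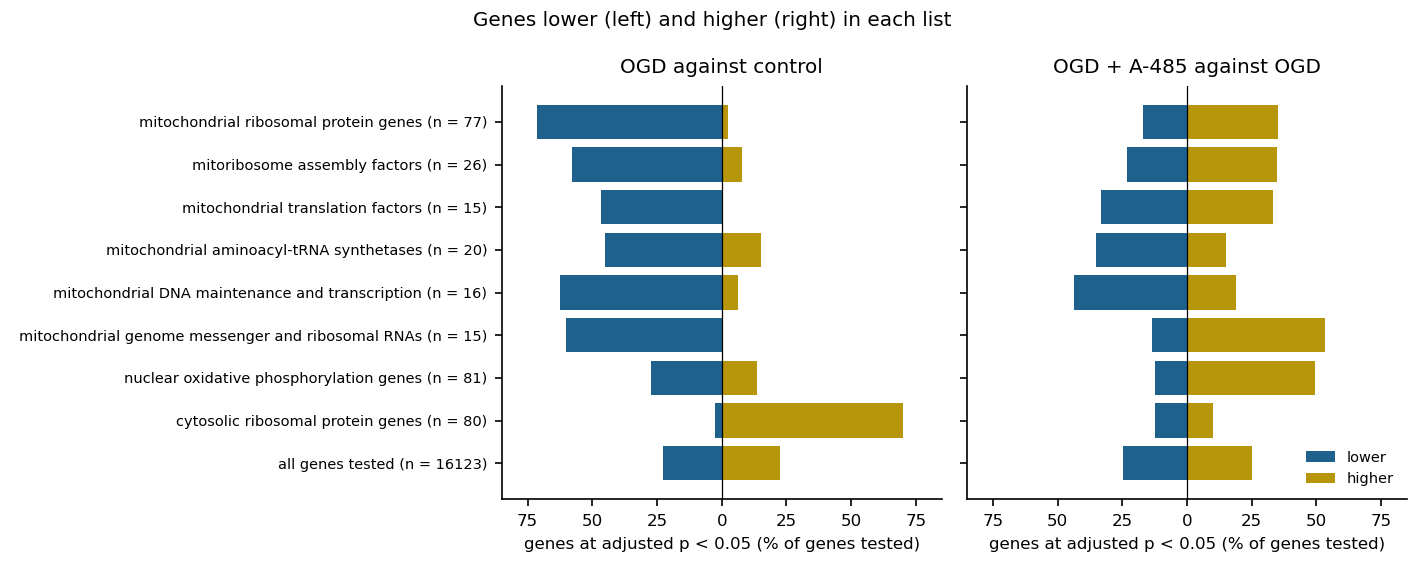
Share of genes lower (bars to the left) and higher (bars to the right) at an adjusted p under 0.05 in limma, as a percent of the genes tested in each list, in OGD against Ctrl and in OGD + A-485 against OGD. Under OGD the mitochondrial ribosomal protein genes have 71.4% lower and 2.60% higher, and the cytosolic ribosomal protein genes 2.50% lower and 70.0% higher.

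The fall under OGD did not extend to the proteins of the cytosolic ribosome. Of 80 cytosolic ribosomal protein genes tested, 56 were higher and 2 lower at an adjusted p under 0.05, with a median log2 fold change of 0.36, against -0.30 in the mitochondrial set. Most of these changes were small, and at the thresholds of the study 4 were higher (5%) and 1 lower, where 11.2% of all genes were higher. After quantile normalization 29 were higher and 3 lower, with a median of 0.15. Of 81 nuclear genes for oxidative phosphorylation, 22 were lower and 11 higher, with a median of -0.09, so their share lower (27.2%) was close to that of all genes. With A-485 against OGD the median was 0.07 in the cytosolic ribosomal set, -0.09 after quantile normalization, and 0.25 in the oxidative phosphorylation set. In the latter 40 genes were higher (49.4%) and 10 lower (12.3%), against 25.1% and 24.7% of all genes. At the thresholds of the study 11 of the 81 were higher with A-485 (13.6%), near the 12.2% of all genes. Under OGD 3 were higher (3.70%) and 5 lower (6.17%), below the 11.2% and 9.81% of all genes. The count lower at an adjusted p under 0.05 with A-485 was 3 after subtraction of the neighbours' median. The differences between these sets were not tested, and both comparison sets were chosen after values of these data were known.

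**Figure D4:**
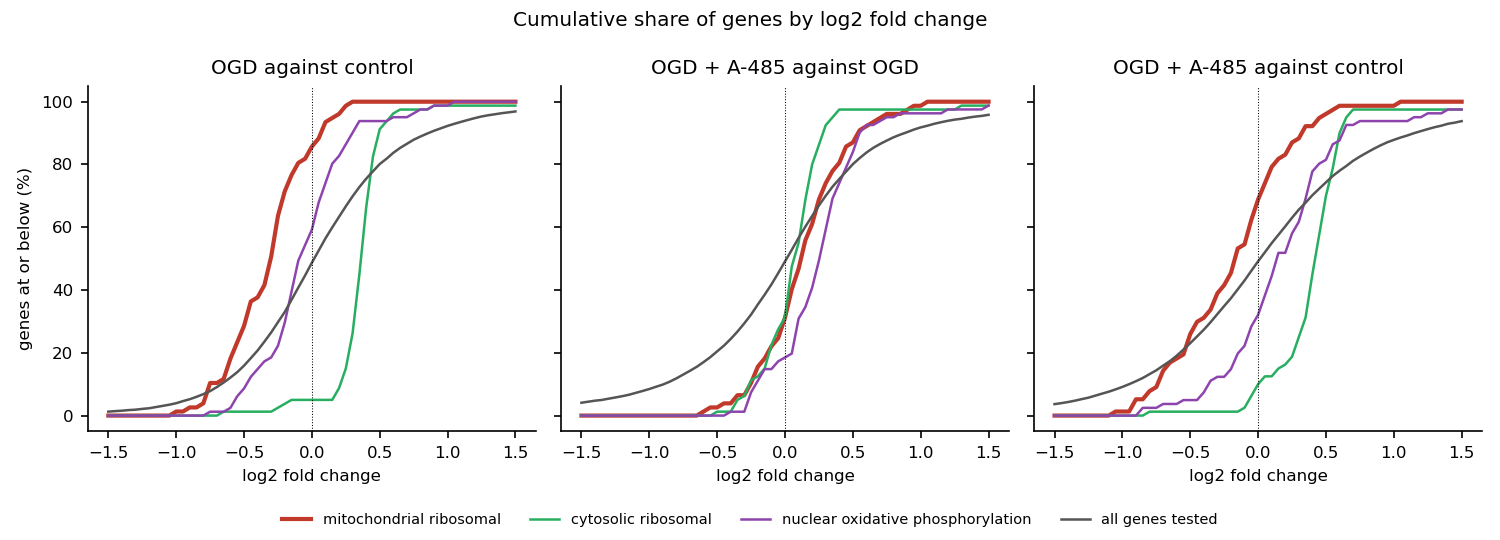
Cumulative percent of genes at or below each log2 fold change in the 3 comparisons, for the 77 mitochondrial ribosomal protein genes, 80 cytosolic ribosomal protein genes, 81 nuclear oxidative phosphorylation genes and all 16123 genes tested. Under OGD the medians are -0.30 for mitochondrial ribosomal genes, 0.36 for cytosolic ribosomal genes and 0.01 for all genes, whose curve is the broadest and crosses the others.

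Markers of the cell's own lineage moved in the same libraries. The 15 microglia and macrophage markers summed to 609.7, 628 and 605 FPKM in Ctrl, 779.9, 779.8 and 798 in OGD and 1434, 1392 and 1424 in OGD + A-485. Of the 13 tested, 8 were higher and 2 lower under OGD at an adjusted p under 0.05, against 22.5% and 22.8% of all genes. With A-485 against OGD 11 were higher and 1 lower, against 25.1% and 24.7% of all genes. Markers of neurons, astrocytes and fibroblasts averaged under 1 FPKM. The part of a shift in cell state in the members' values was not tested.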

How the data were processed

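RNA of BV2 cells was measured in 9 libraries, 3 each of control, OGD and OGD with A-485, grouped by the sample titles. The authors removed adapter, N-containing and low-quality reads, counted reads per gene with featureCounts and deposited FPKM computed from gene length; aligner and strand setting are not given in the sources used here. The submitters' processing notes name builds GRCm38 and mm10. Reads per gene, recovered from FPKM and gene length, came out whole within 0.05 for 100% of values, with 12593250 to 16091038 reads per library. Between libraries of a group chi-square per degree of freedom was 2.80 to 5.73, so they differed by more than counting noise.

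The 16123 genes averaging 0.2 FPKM or more were fitted as log2(FPKM + 0.1) in limma 3.58.1 (R 4.3.3), with all 9 libraries, group means and a trended prior variance. Calls took p under 0.01 and a log2 fold change above 0.5 in size; a second rule took a Benjamini-Hochberg adjusted p under 0.05. Genes were named as the 6 largest changes per direction and comparison passing the second rule, plus the stalk, the bacterial S18 paralogues and Mrps36. Members and gene lists were chosen with earlier results of these data known. Promoters came from RefSeq GRCm38.p6. Alternatives covered pseudocount, filter, scaling, limma-voom on recovered reads, groups fitted, a replicate block, neighbouring genes and each library left out. The code was checked on simulated data. A planned description of protein sequences was not run, because no protein table was supplied.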

Additional observations from a re-analysis of the deposited data

How the results depend on the processing

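Of the named genes' log2 fold changes under the alternatives, 2585 kept direction and side of the threshold and 159 fell short of it. A further 23 carried the label stronger, which does not mean that they passed the thresholds of the study, and 3 reversed. Median-of-ratios rescaling divided every library by the same 1.006, so the deposited values were already even between libraries by that measure. That rescaling could hardly change a value. The limma-voom fit also kept the deposited scaling. The labels kept under these 2 are no check of the scaling. Among members named for a comparison, Mrpl1 (neighbours removed) and Mrps36 (library totals) were newly called against OGD. Mrpl57 was newly called against control without Ctrl replicate 2. With OGD + A-485 against OGD the reversals were Mettl17 (-0.0822) and Mrpl11 (-0.0366) once the 50 neighbours' median was taken off, and Mrpl10 (0.0052 without OGD + A-485 replicate 2, the highest when 1 library was left out; lowest -0.055). With adjusted p under 0.05 alone, members higher and lower numbered 2 and 55 for OGD against control, 27 and 13 for OGD + A-485 against OGD, and 12 and 38 for OGD + A-485 against control. The members' median for OGD against control was -0.351 with scaling to library totals and -0.349 to -0.283 with 1 library left out. For OGD + A-485 against OGD it was 0.0738 with quantile normalization, 0.0578 with library totals and 0.0711 to 0.145 with 1 library left out. With neighbours removed, 3 members were called higher and 1 lower in that comparison. For OGD + A-485 against control, 1 member was called higher with library totals, at a median of -0.309, and 0 with neighbours removed; library totals shifted the median of all genes by -0.104 here and by -0.0593 against OGD, where members less all genes gave 0.105 (0.11 as deposited). Against OGD, members less all genes gave 0.0775 with quantile normalization and 0.0591 without OGD replicate 2. All these alternatives reuse the same libraries and vary only the processing, and the cause of the changes was not tested.

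Replicate numbers are only shared labels. With the replicate number as a block, 0 members were called higher and 22 lower for OGD against control, 10 and 2 for OGD + A-485 against OGD, and 3 and 20 for OGD + A-485 against control, as without it. Residuals of libraries with the same number correlated at a mean of -0.0023 (-0.0463 to 0.0386), and of different numbers at 0.00115. Members held 64 reads or more in every library, except Mrpl53.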
